A study of Mus musculus with 8 samples.

Results

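Forkhead (Fox) transcription factors share a DNA-binding domain of the winged-helix type and are named by letter (subfamily) and number. The 40 genes described here are those of the 36808 genes in the expression table whose symbol is Fox, a letter from a to s and a number, leaving out *Foxa1*, *Foxa2* and *Foxc2*. They were grouped by where they are known to be active. The broad group held 12 genes used by many cell types, the epiblast group held 2 genes of pluripotent cells, *Foxd3* and *Foxh1*, and the restricted group held 26 genes of particular tissues. Of the 26 restricted genes, 9 were assigned to neural tissue, 4 to endoderm, 5 to mesoderm and mesenchyme and 8 to other tissues. The question was how the restricted genes compared with the broad ones in mouse embryonic stem cells (ESCs) and in spinal motor neuron cultures when Polycomb repressive complex 2 (PRC2) was impaired.

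RNA-seq was used from 8 libraries, 1 for each condition, so that no difference has a replicate check and no p-value is given. The ESC libraries were E14 wild type (background 129/Ola), CJ7 wild type (129/S), Suz12delta (C57/BL6), whose SUZ12 is truncated, and Eednull (BALB/cR1), which carries a point mutation in *Eed*. The day 5 libraries were E14, Suz12GT (129/Ola), Suz12delta and Eednull cells. Suz12GT is a hypomorphic gene trap that fuses SUZ12 to beta-galactosidase. A Suz12GT ESC library was not analysed here. ESCs were kept on irradiated mouse embryonic fibroblasts, which were depleted by plating before collection. For day 5, LIF was withdrawn and the cells were given retinoic acid and a Hedgehog agonist to direct them to spinal motor neurons. Each line has its own strain background apart from E14 and Suz12GT, and background, line and genotype cannot be told apart in the other comparisons. By its label the CJ7 library was prepared and sequenced together with a library that appears from its name to be the Eednull ESC one, so batch may not be told apart from line in comparisons of CJ7 or Eednull ESCs with E14 or Suz12delta ESCs, nor from day in the comparison of Eednull ESCs with Eednull day 5 cells.

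Values are FPKM, mapped fragments scaled by transcript length and by the library's mapped fragments. The table holds no read counts, so depth in reads is unknown. FPKM summed to between 389165 (Suz12delta ESCs) and 797748 (E14 ESCs), and the 10 highest genes took between 7.69% and 35.2% of a library's sum. Ratios are log2 of FPKM plus 0.1, for genes that reached 0.1 FPKM in either library of a pair, and higher or lower below means at least 2-fold on that scale, which understates the difference for low genes. *Suz12* was at 41.3 FPKM in E14 ESCs, 53.1 in CJ7, 6.21 in Suz12delta and 35.7 in Eednull ESCs, and at day 5 it was at 16.2 in E14, 10.3 in Suz12GT, 11.6 in Suz12delta and 17.6 in Eednull cells. *Eed* lay between 18.8 and 50.9 FPKM in the ESC libraries and between 11.1 and 15.9 at day 5; a point mutation need not change this level. The summed FPKM of 10 fibroblast markers was 87.6 in E14, 113 in CJ7, 525 in Suz12delta and 266 in Eednull ESCs, and 4.83 in E14, 18.3 in Suz12GT, 123 in Suz12delta and 65.9 in Eednull cells at day 5. Of these markers, 1 was listed at 0, in E14 day 5 cells. That of 8 motor neuron markers at day 5 was 147, 115, 19.8 and 18.3 in the same order, so the labelled cell type was weakly marked in the Suz12delta and Eednull cultures. In such bulk libraries, fewer cells of a type and less RNA per cell cannot be told apart.

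As background, PRC2 contains SUZ12, EED and an EZH methyltransferase and places the mark H3K27me3, which is found over the CpG-rich promoters of many developmental regulators in ESCs, forkhead genes among them. Forkhead proteins bind short AT-rich sites, and several act as pioneer factors that can reach their sites in closed chromatin. Members of the family take part in early patterning of endoderm, mesoderm and the neural tube, while the FOXO, FOXK, FOXM and part of the FOXP proteins serve metabolism, growth and the cell cycle in most cells.

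The division between restricted and broad genes was visible in the levels themselves. In both wild-type ESC libraries 22 of the 26 restricted genes were under 1 FPKM, the exceptions being *Foxi3*, *Foxr2*, *Foxn4* and *Foxr1*. In any of the 8 libraries 16 restricted genes reached 1 FPKM, whereas 9 of the 12 broad genes were at 1 FPKM or more in all 8. The median over the 26 restricted genes was 0.240 FPKM in E14 ESCs, 0.134 in CJ7, 0.271 in Suz12delta and 0.380 in Eednull ESCs, and at day 5 it was 0.0368 in E14, 0.112 in Suz12GT, 0.242 in Suz12delta and 0.265 in Eednull cells. The broad medians over 12 genes were 12.9, 8.30, 5.97 and 10.2 FPKM in the ESC libraries and 7.24, 9.34, 11.4 and 9.96 FPKM at day 5, in the same orders. The number of restricted genes at 1 FPKM or more was 2 in E14, 4 in CJ7, 2 in Suz12delta and 4 in Eednull ESCs, and 4 in E14, 6 in Suz12GT, 10 in Suz12delta and 9 in Eednull cells at day 5. Of all 36808 genes, 39.7%, 38.8%, 40.1% and 40.4% reached 1 FPKM in these ESC libraries. The share of all genes at day 5 was 38.2%, 40.7%, 42.0% and 40.8%, in the same order. The restricted genes also took a larger part of the summed FPKM of the 40 genes in the mutant libraries, a share that does not depend on how the libraries were scaled. It was 5.39% in E14, 7.20% in CJ7, 12.3% in Suz12delta and 12.7% in Eednull ESCs, and 9.25% in E14, 10.9% in Suz12GT, 13.1% in Suz12delta and 13.6% in Eednull cells at day 5. The restricted sum was 9.44 FPKM in E14, 9.31 in CJ7, 12.3 in Suz12delta (4.66 of it from *Foxs1*) and 20.6 in Eednull ESCs. The broad sum in these libraries was 143, 108, 78.8 and 127 FPKM, so the Suz12delta ESC share also reflected a lower broad sum. Restricted genes had a wider range across libraries. The median distance between a gene's lowest and highest library was 3.84 on the log2(FPKM + 0.1) scale against 1.63 for broad genes. But 16 of the 26 restricted genes were listed at 0 in at least 1 library, against 1 of the 12 broad genes. Zeros and low values thus enter this distance, and genes of like level were not compared.

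**Figure D1:**
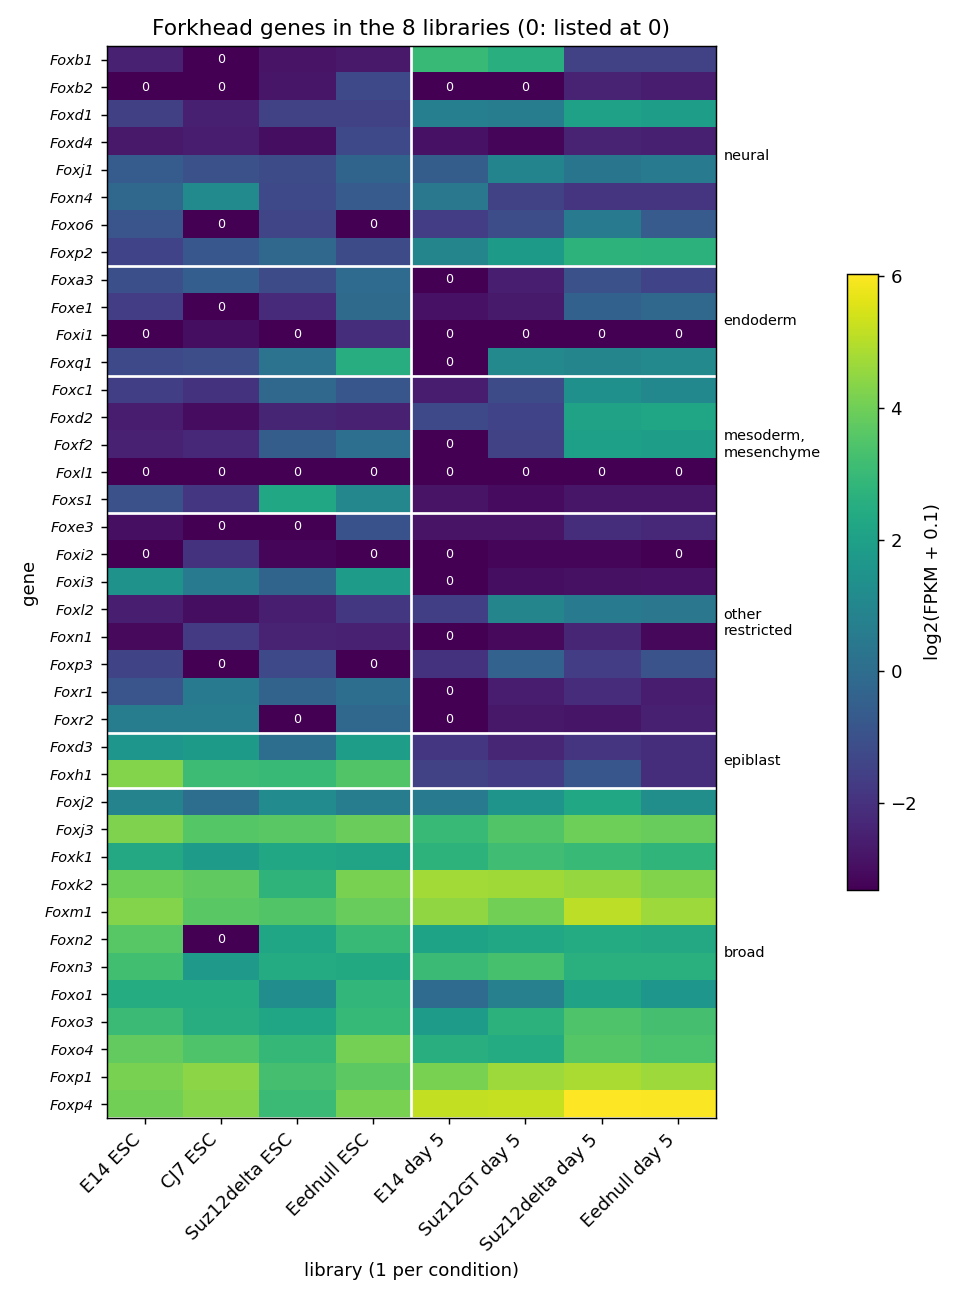
Heat map of log2(FPKM + 0.1) for 39 of the 40 forkhead genes (rows, grouped by known tissue) in the 8 libraries (columns, 1 per condition), with 0 printed where a gene was listed at 0. The 12 broad genes at the bottom are bright in nearly every column, and most restricted genes are dark in ESCs. Of 26 restricted genes, 10 are at 1 FPKM or more in Suz12delta day 5 cells against 4 in E14 day 5 cells. Of all genes 42.0% and 38.2% are.

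The 10 restricted genes that never reached 1 FPKM were *Foxa3*, *Foxb2*, *Foxd4*, *Foxe1*, *Foxe3*, *Foxi1*, *Foxi2*, *Foxl1*, *Foxn1* and *Foxp3*, with values from 0 to 0.875 FPKM. *Foxl1*, a factor of gut mesenchyme, was listed at 0 in all 8 libraries. The table gives it a locus on chromosome 8 of 122434259 to 126869624 that it shares with 152 genes in all, itself included, and all 152 were at 0 throughout, so these zeros are no measurement of *Foxl1*. The broad gene *Foxn2* was listed at 0 in CJ7 ESCs and had 4.15 FPKM or more elsewhere, and each library listed from 0 to 5 genes at 0 that exceeded 10 FPKM in all others. A value of 0 is therefore given below only as listed at 0, with no fold. In all, 14 of the 40 genes shared their locus in the table with other genes, among them *Foxq1*, *Foxe1* and *Foxb1*, and how their reads were divided was not tested.

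In ESCs, 3 restricted genes separated both mutant lines from both wild-type lines. Between the wild-type lines themselves, 4 of the 26 restricted genes were higher and 3 lower in CJ7 than in E14 (18 passed the 0.1 FPKM minimum), where 15.7% of all genes tested were higher and 14.7% lower. The 3 lower ones were listed at 0 in CJ7. In Suz12delta ESCs against E14, 5 restricted genes were higher and 3 lower (16 passed), beside 18.0% and 22.8% of all genes. The restricted median log2 ratio was 0.10, against -0.87 over the 12 broad genes and -0.28 over all genes. In Eednull ESCs against E14, 10 restricted genes were higher and 2 lower (21 passed), beside 22.4% and 11.9% of all genes, with medians of 0.93 for restricted, -0.22 for broad and 0.04 for all genes. Among genes above 0 in both libraries 8 of these 10 were higher, and both lower ones, *Foxo6* and *Foxp3*, were listed at 0 in Eednull ESCs. With CJ7 as the wild-type line, 9 restricted genes were higher and 3 lower in Suz12delta ESCs (18 passed), where 21.1% and 24.0% of all genes were, and 12 were higher and 2 lower in Eednull ESCs (21 passed), where 20.5% and 10.7% of all genes were. With a pseudocount of 1 the restricted genes higher than in E14 came to 1 in Suz12delta and 2 in Eednull ESCs. No broad gene was higher than in E14 in either mutant, and 3 broad genes (*Foxk2*, *Foxn2* and *Foxo1*) were lower in Suz12delta ESCs. Scaling the libraries to a common 75th percentile moved the median of all genes by 0.36 in Suz12delta, 0.16 in Eednull and 0.22 in CJ7 ESCs against E14, and the -1.21 of *Foxk2* and -1.20 of *Foxo1* became -0.85 and -0.85.

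Against both wild-type lines, 3 restricted genes were higher in both mutants, *Foxs1*, *Foxf2* and *Foxq1*, of 23 that passed the minimum in at least 1 ESC library. Over all genes 3.40% met this rule. *Foxs1*, expressed in pericytes and other perivascular and neural-crest-derived cells (NCBI build 37, chromosome 2 from base 152757634 to 152758944), measured 0.399 FPKM in E14, 0.177 in CJ7, 4.66 in Suz12delta and 1.94 in Eednull ESCs. The log2 ratio to E14 was 3.26 in Suz12delta and 2.03 in Eednull ESCs. At day 5 the gene was at 0.0403, 0.0198, 0.0476 and 0.0479 FPKM in E14, Suz12GT, Suz12delta and Eednull cells, so its high values were those of the mutant ESC libraries. These are also the ESC libraries with the highest fibroblast marker sums given above. All 10 fibroblast markers were higher in Suz12delta and 5 of 10 in Eednull ESCs than in E14, and their part in the result was not tested.

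*Foxq1*, a factor of stomach epithelium and hair follicle that lies on chromosome 13 (31650039 to 31652839), had the highest ESC value of any restricted gene. It was at 0.319 FPKM in E14, 0.363 in CJ7, 1.07 in Suz12delta and 5.65 in Eednull ESCs. In the day 5 set it was listed at 0 in E14 and was at 2.02 in Suz12GT, 1.83 in Suz12delta and 2.004 in Eednull cells, so the 3 mutant cultures lay close together. The sum of 8 endoderm markers moved in the same libraries. It was 4.89 FPKM in E14, 5.46 in CJ7, 36.0 in Suz12delta and 57.4 in Eednull ESCs, and 2.41, 29.2, 49.3 and 49.1 at day 5 in E14, Suz12GT, Suz12delta and Eednull cells. Of the 8 markers, 2 were listed at 0 in E14 and 0 in Eednull ESCs, 2 in E14 day 5 cells and 0 in the mutant day 5 cells, and their part in the *Foxq1* values was not tested. The other endoderm genes were low. *Foxa3*, of liver and gut, ranged from 0 to 0.875 FPKM and *Foxe1*, of thyroid, from 0 to 0.843 FPKM, both highest in Eednull ESCs. All 4 endoderm genes were higher in Eednull than in E14 ESCs, where 22.4% of all genes were, but *Foxi1* was listed at 0 in E14. Against CJ7, 2 of the 4 were higher in Eednull ESCs, where 20.5% of all genes were. These were *Foxq1* and *Foxe1*, the latter listed at 0 in CJ7.

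Some restricted genes were on in wild-type ESCs and off in every day 5 library. *Foxi3*, of ectodermal placodes, teeth and hair, was at 2.67 FPKM in E14, 1.34 in CJ7, 0.715 in Suz12delta and 3.42 in Eednull ESCs. By day 5 it was listed at 0 in E14 and did not pass 0.0362 in the others, where it was at 0.0284 in Suz12GT and 0.0338 in Suz12delta cells. *Foxr1* and *Foxr2*, a poorly known pair with expression in germ cells and, for *Foxr2*, oncogenic activity, had the same form. *Foxr1* was at 0.451, 1.31, 0.696 and 0.952 FPKM in E14, CJ7, Suz12delta and Eednull ESCs and at 0, 0.0683, 0.125 and 0.0664 in E14, Suz12GT, Suz12delta and Eednull day 5 cells. *Foxr2* was at 1.45 in E14, 1.42 in CJ7 and 0.799 in Eednull ESCs, was listed at 0 in Suz12delta ESCs and E14 day 5 cells, and was at 0.0531, 0.0444 and 0.0767 in Suz12GT, Suz12delta and Eednull day 5 cells.

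The epiblast genes followed this ESC pattern at higher levels. *Foxh1*, the partner through which SMAD2 and SMAD3 reach Nodal target genes, was at 19.8 FPKM in E14, 8.35 in CJ7, 7.87 in Suz12delta and 11.1 in Eednull ESCs, and was at 0.259 in E14, 0.209 in Suz12GT, 0.474 in Suz12delta and 0.136 in Eednull day 5 cells. *Foxd3*, needed in pluripotent cells and neural crest, was at 2.91, 3.35, 0.930 and 3.69 FPKM in the ESC libraries and 0.177, 0.101, 0.169 and 0.136 at day 5, in the same orders. Of the ESC libraries, both genes were lowest in Suz12delta, and *Foxh1* was also lower in CJ7 than in E14 (log2 ratio -1.24). The ESC marker sum was 1190 in E14, 1010 in CJ7, 508 in Suz12delta and 962 in Eednull ESCs and between 1.29 and 20.03 at day 5. Of the 8 ESC markers 6 were lower in Suz12delta than in E14 ESCs, and their part in the epiblast values was not tested.

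Wild-type cells were compared before and after motor neuron differentiation. Against E14 ESCs, 4 of the 26 were higher at day 5 and 9 lower (18 passed the minimum), beside 18.3% and 25.8% of all genes. Of the 9 lower ones 5 were listed at 0 at day 5, and among genes above 0 in both libraries there were 4 in each direction. The restricted median was -0.89 (0.02 over the 13 genes above 0 in both), against -0.26 for broad genes and -0.20 for all genes. With no minimum it was -0.22 over all 26. With a minimum of 1 FPKM it was 1.44 over 6 restricted genes, 3 of them higher and 2 lower. The order of restricted and broad thus depended on the minimum. The 4 higher genes were *Foxb1*, *Foxp2*, *Foxd1* and *Foxd2*, 3 of them in the neural group, of whose 9 members 7 passed the minimum.

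*Foxb1*, a gene of the early neural tube and hypothalamus (chromosome 9, 69605517 to 69608747), gave the highest value of any restricted gene, and among restricted genes the lowest ratio to E14 in Suz12delta and Eednull day 5 cells. It was at 0.0832 FPKM in E14 and 0.0401 in Suz12delta ESCs, at 0.0561 in Eednull ESCs, and was listed at 0 in CJ7. Its day 5 value was 8.04 FPKM in E14 and 5.95 in Suz12GT cells but 0.263 in both Suz12delta and Eednull cells. The log2 ratio to E14 day 5 was -0.43 in Suz12GT and -4.49 in each of the other mutants. *Foxn4*, which directs V2 interneuron progenitors in the spinal cord, was the other restricted gene lower in these lines. It was at 0.764, 2.15, 0.319 and 0.544 FPKM in E14, CJ7, Suz12delta and Eednull ESCs, and at 1.23 in E14, 0.263 in Suz12GT, 0.164 in Suz12delta and 0.162 in Eednull day 5 cells. Unlike *Foxb1*, *Foxn4* was also low in Suz12GT cells, with a log2 ratio of -1.87. Of the 8 motor neuron markers, 3 were lower in Suz12GT and all 8 in Suz12delta and Eednull cells than in E14 at day 5, and their part in these results was not tested.

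*Foxp2* and *Foxd1* were up in wild-type cells and higher still in Suz12delta and Eednull cells. *Foxp2*, a repressor of developing neurons known for its role in speech (chromosome 6, 14851349 to 15391977), was at 0.272, 0.483, 0.796 and 0.353 FPKM in E14, CJ7, Suz12delta and Eednull ESCs. At day 5 it was at 1.81 FPKM in E14, 3.35 in Suz12GT, 6.52 in Suz12delta and 6.30 in Eednull cells, with log2 ratios to E14 of 0.85, 1.79 and 1.74. *Foxd1*, of the ventral forebrain, retina and kidney stroma (chromosome 13, 99124200 to 99126660), was at 0.243, 0.0772, 0.256 and 0.260 FPKM in the ESC libraries and at 1.54 in E14, 1.42 in Suz12GT, 3.96 in Suz12delta and 3.65 in Eednull day 5 cells. For both genes the Suz12delta and Eednull values lay close together and above those of E14 and Suz12GT.

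At day 5, 12 of the 26 restricted genes were at least 2-fold higher than in E14 in each of the Suz12delta and Eednull lines. In Suz12delta cells against E14, 12 of the 26 restricted genes were higher and 2 lower (17 passed the minimum), where 26.6% and 9.52% of all genes were. Above 0 in both libraries, 8 were higher and 2 lower of 13. The median log2 ratio was 2.14 over the 17 (1.79 over the 13), 0.79 over the 12 broad genes, of which 4 were higher and 0 lower, and 0.26 over all genes. Over all 26 restricted genes with no minimum it was 0.94, close to the broad median. In Eednull cells against the same E14 library, 12 restricted genes were higher and 2 lower (16 passed), where 21.6% and 11.3% of all genes were, and 9 were higher and 2 lower among the 13 above 0 in both. Medians were 1.81 for restricted (1.196 over the 13), 0.66 for broad, of which 2 were higher, and 0.08 for all genes, and 0.89 over all 26 restricted genes with no minimum. Dropping the 0.1 FPKM minimum thus narrowed the distance between restricted and broad medians. It could not change the counts of 12, since a gene under 0.1 FPKM in both libraries cannot reach 2-fold with 0.1 added. With a minimum of 1 FPKM, 9 restricted genes were higher in each line, of 12 that passed in Suz12delta and 11 in Eednull cells. In E14 day 5 cells only *Foxb1*, *Foxd1*, *Foxn4* and *Foxp2* reached 1 FPKM. The others passed only through the mutant library, so this minimum itself favoured higher calls. Restricted medians were then 2.15 and 1.97, and broad medians stayed at 0.79 and 0.66. The comparisons share their E14 library. With a pseudocount of 1, which weighs low values less, 6 restricted genes were higher in each. Set against each other, Suz12delta and Eednull day 5 cells differed by 2-fold in 1 of 17 restricted genes, *Foxo6*, and in 0 of 12 broad genes, where 9.93% of all genes were higher in Suz12delta and 4.62% lower.

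**Figure D2:**
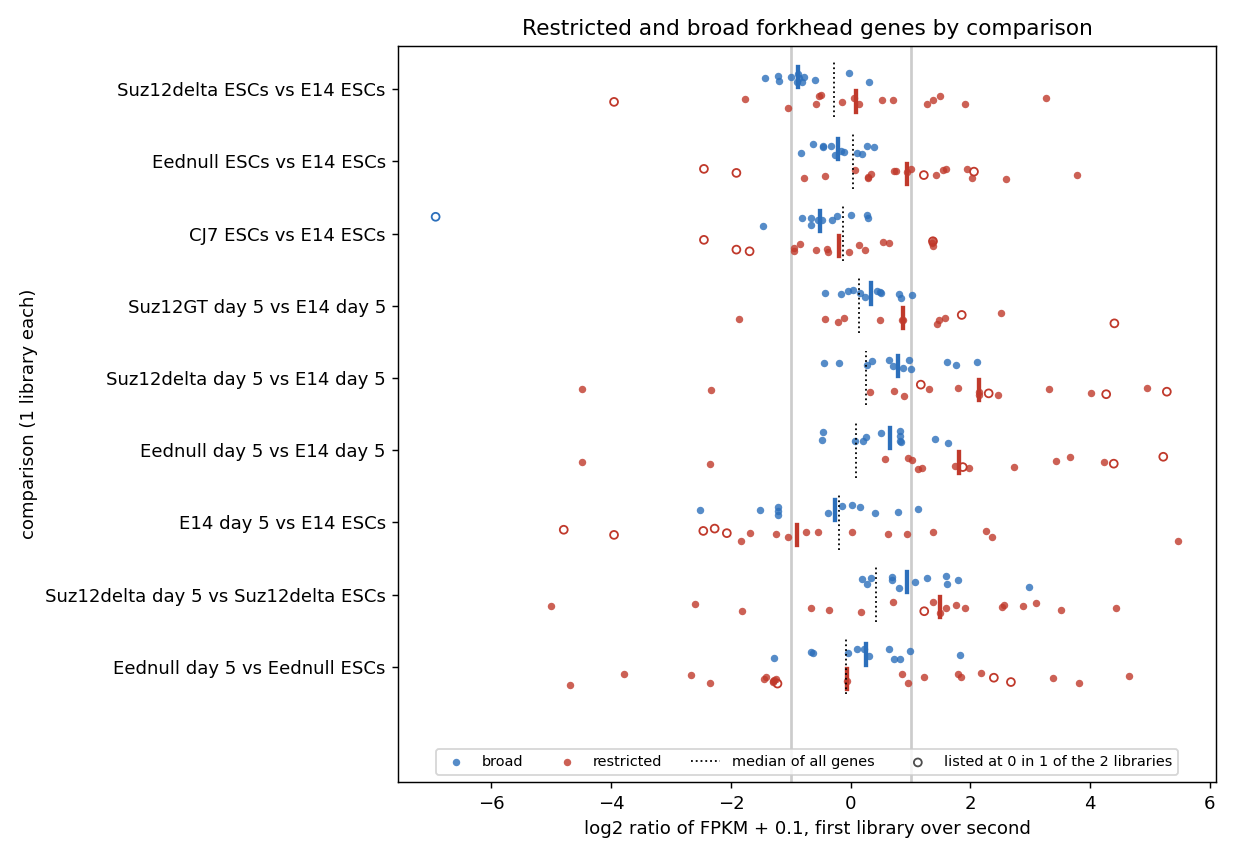
Log2 ratio of FPKM + 0.1 (x axis) in 9 comparisons of 2 libraries (y axis) for restricted and broad forkhead genes that passed the 0.1 FPKM minimum, 1 point per gene. Short bars are class medians, dotted lines the median of all genes, grey lines 2-fold, and open circles genes listed at 0 in 1 of the libraries. Restricted medians are 2.14 and 1.81 in Suz12delta and Eednull day 5 cells and broad medians 0.79 and 0.66.

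In the mesoderm and mesenchyme group, the 3 members above the minimum at day 5, *Foxf2*, *Foxc1* and *Foxd2*, were all higher in Suz12delta and in Eednull cells. Over all genes 26.6% and 21.6% were higher. *Foxf2* and *Foxc1* were under 0.1 FPKM in E14 day 5 cells and passed the minimum only through the mutant libraries. The other 2 members were *Foxl1*, without a measurement, and *Foxs1*. *Foxf2*, of gut and craniofacial mesenchyme and brain pericytes (chromosome 13, 31717685 to 31723272), was at 0.0792 FPKM in E14, 0.110 in CJ7, 0.571 in Suz12delta and 0.978 in Eednull ESCs. At day 5 it was listed at 0 in E14 and was at 0.262 in Suz12GT, 3.79 in Suz12delta and 3.63 in Eednull cells. *Foxc1*, of somites, head mesenchyme and the anterior eye, lies 175 kb from it (31898515 to 31902504). It was at 0.236 in E14, 0.158 in CJ7, 0.769 in Suz12delta and 0.471 in Eednull ESCs. The day 5 values of *Foxc1* were 0.0627 in E14, 0.344 in Suz12GT, 2.52 in Suz12delta and 1.95 in Eednull cells, with log2 ratios to E14 of 1.45, 4.01 and 3.66. *Foxd2*, of paraxial and kidney mesenchyme (chromosome 4, 114578885 to 114581503), was at no more than 0.0935 in any ESC library, with 0.0619 in E14, 0.0254 in CJ7 and 0.0819 in Eednull ESCs. The day 5 values were 0.322 in E14, 0.266 in Suz12GT, 4.07 in Suz12delta and 4.46 in Eednull cells. In all 3 genes the Suz12delta and Eednull cultures were high and close, and Suz12GT was nearer to E14. The fibroblast marker sum given above was 123 and 65.9 FPKM in these 2 libraries and 4.83 in E14 and 18.3 in Suz12GT, all 10 markers were higher than in E14 in both, and their part in these values was not tested.

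Among the neural genes, *Foxo6*, the brain member of the FOXO subfamily, was at 0.447 FPKM in E14 and 0.287 in Suz12delta ESCs and was listed at 0 in CJ7 and Eednull ESCs. At day 5 it was at 0.228, 0.361, 1.35 and 0.540 in E14, Suz12GT, Suz12delta and Eednull cells. *Foxo6* was the restricted gene that separated Suz12delta from Eednull day 5 cells, with a log2 ratio of 1.18.

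**Figure D3:**
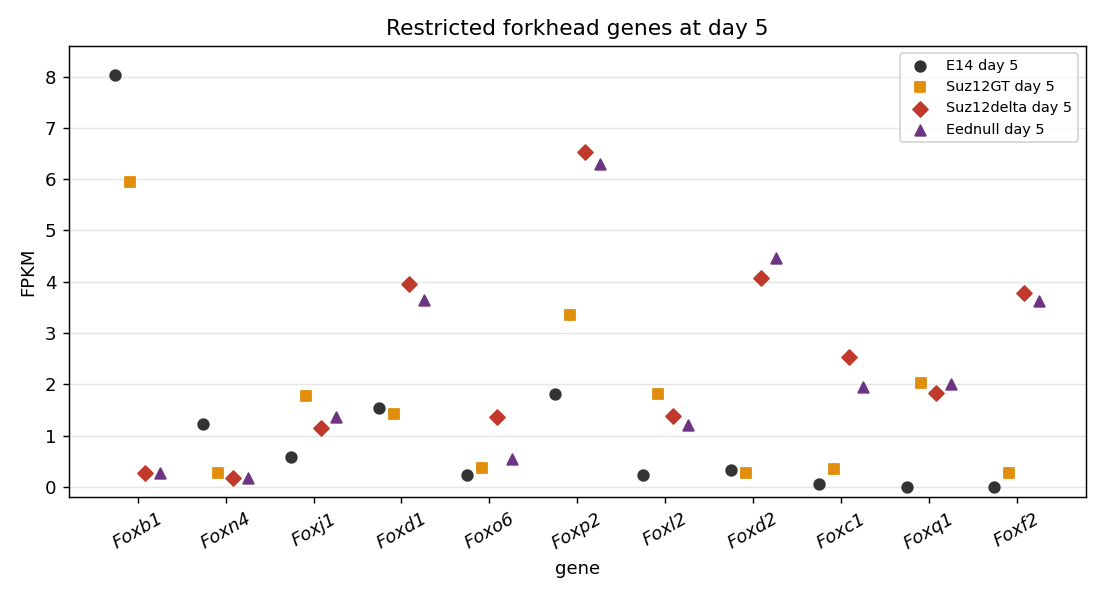
FPKM (y axis, linear) of 11 of the 12 restricted forkhead genes that reached 1 FPKM in at least 1 day 5 library (x axis), with 1 point for each of the E14, Suz12GT, Suz12delta and Eednull libraries. Foxb1 is at 8.04 in E14 and 0.263 in Suz12delta and Eednull cells, while Foxd2 and Foxf2 are between 3.63 and 4.46 in Suz12delta and Eednull cells and at 0.322 or less in E14 and Suz12GT cells.

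Promoter sequence was compared because PRC2 is known to act at CpG-rich promoters. RefSeq windows of 300 bases, from 250 before to 50 after the transcript start (GRCm38.p6), were found for 26 of the 40 genes, 17 restricted, 8 broad and 1 epiblast. The first listed window of each gene was used. Restricted genes without a window included *Foxb1*, *Foxe1*, *Foxj1*, *Foxl1*, *Foxo6*, *Foxp2*, *Foxq1* and *Foxs1*. The median number of CpG dinucleotides per window was 15 in restricted, 34 in broad and 7 in all 27025 promoters, and 35.2% of all promoters held 15 or more. The forkhead motif TGTTTAC, searched on both strands, was in 0 of the 26 windows and in 3.55% of all promoters. Among the 9 restricted genes with 15 CpG or more, 8 passed the minimum in Suz12delta day 5 cells against E14. Of these, 7 were higher and 1 lower. In Eednull cells 7 passed, with 6 higher and 1 lower. Over all genes 26.6% and 21.6% were higher. *Foxa3*, *Foxf2* and *Foxr1* were listed at 0 in E14 day 5 cells, and *Foxc1* was at 0.0627 FPKM there. These genes passed only through a mutant library (*Foxr1* in Suz12delta alone), a route by which no gene could be lower. *Foxd1*, *Foxd2* and *Foxl2* passed in E14 itself and were higher in both lines. *Foxn4* also passed in E14 and was lower in both. The shares among genes that passed thus depended on the minimum. Of the 8 restricted genes with fewer CpG, only 2 passed the minimum, so for most of them these libraries gave no ratio. Of the 2, 0 were higher in Suz12delta and 1 was higher in Eednull cells (*Foxp3*). None of the 8 exceeded 0.425 FPKM in Suz12delta or Eednull day 5 cells. *Foxn4*, the lower gene among those with a window, had 22 CpG and *Foxk2*, the broad gene with most CpG (59), was not higher. *Foxb1*, also lower in both lines, could not be placed.

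The 250 bases before the start are shown on the plus strand of GRCm38.p6, 5′ to 3′ and with CpG in capitals, for the restricted genes with a window that had the highest Suz12delta day 5 ratios (*Foxf2*, chr13:31625566-31625815, and *Foxc1*, chr13:31806396-31806645), for the broad gene with the most CpG (*Foxk2*, chr11:121259737-121259986), and for the restricted genes with the fewest (*Foxi2*, chr7:135410117-135410366, and *Foxr2*, chrX:153118538-153118787). These stretches hold 21, 29, 48, 3 and 3 CpG.
Foxf2: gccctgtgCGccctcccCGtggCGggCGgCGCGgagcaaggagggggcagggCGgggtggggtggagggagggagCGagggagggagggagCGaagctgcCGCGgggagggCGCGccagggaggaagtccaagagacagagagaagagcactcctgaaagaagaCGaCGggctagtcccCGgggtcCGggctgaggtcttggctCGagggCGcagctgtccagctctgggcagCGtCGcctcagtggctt
Foxc1: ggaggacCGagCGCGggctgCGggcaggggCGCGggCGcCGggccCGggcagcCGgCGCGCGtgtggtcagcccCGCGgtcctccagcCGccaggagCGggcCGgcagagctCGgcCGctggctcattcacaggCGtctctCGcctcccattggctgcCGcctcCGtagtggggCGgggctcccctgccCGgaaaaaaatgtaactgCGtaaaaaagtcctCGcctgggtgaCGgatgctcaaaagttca
Foxk2: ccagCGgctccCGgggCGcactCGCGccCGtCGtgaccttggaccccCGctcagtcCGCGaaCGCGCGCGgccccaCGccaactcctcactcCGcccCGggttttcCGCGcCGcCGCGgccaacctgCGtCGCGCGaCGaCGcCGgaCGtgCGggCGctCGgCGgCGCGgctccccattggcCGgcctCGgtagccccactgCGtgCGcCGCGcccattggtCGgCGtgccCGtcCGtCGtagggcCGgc
Foxi2: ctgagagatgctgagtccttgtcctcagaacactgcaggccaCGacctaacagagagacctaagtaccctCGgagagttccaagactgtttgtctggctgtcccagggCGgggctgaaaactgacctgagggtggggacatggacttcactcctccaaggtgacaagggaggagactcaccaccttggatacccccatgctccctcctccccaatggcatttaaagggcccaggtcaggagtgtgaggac
Foxr2: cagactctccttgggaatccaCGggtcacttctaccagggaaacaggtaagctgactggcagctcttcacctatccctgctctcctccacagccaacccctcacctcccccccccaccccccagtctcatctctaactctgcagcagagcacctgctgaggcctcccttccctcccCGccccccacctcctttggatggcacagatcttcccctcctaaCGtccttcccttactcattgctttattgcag

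The capitals crowd the *Foxf2*, *Foxc1* and *Foxk2* stretches and are nearly missing from the others. *Foxf2* and *Foxc1*, silent in wild-type ESCs, reached 3.79 and 2.52 FPKM in Suz12delta day 5 cells. *Foxk2*, with more CpG than either, was at 6.63 FPKM or more in all 8 libraries. *Foxi2*, a gene of surface ectoderm and kidney, did not pass 0.159 FPKM in any library, and *Foxr2* was the restricted gene with fewer than 15 CpG that reached 1 FPKM in wild-type ESCs.

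**Figure D4:**
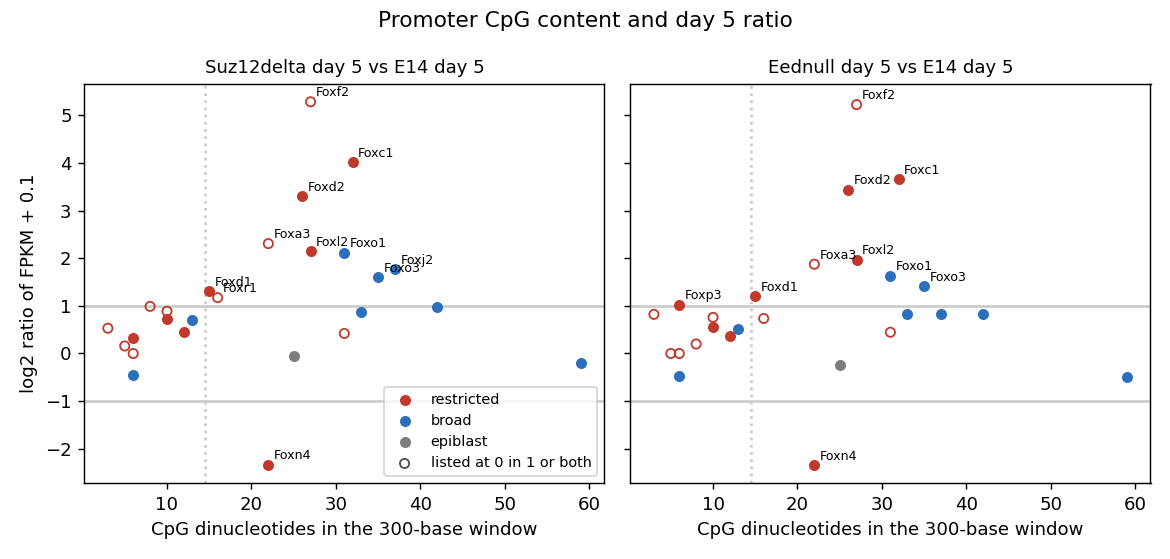
Number of CpG dinucleotides in the 300-base promoter window (x axis) against the log2 ratio of FPKM + 0.1 to E14 day 5 (y axis) for the 26 forkhead genes with a window, in Suz12delta (left) and Eednull (right) cells. Open circles are genes listed at 0 in 1 or both libraries, grey lines 2-fold, and the dotted line separates fewer than 15 CpG from 15 or more. Genes under the 0.1 FPKM minimum are included, and restricted genes at or over 15 CpG spread from Foxn4 (-2.33 and -2.34) to Foxf2, listed at 0 in E14.

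The hypomorph Suz12GT resembled wild type for some restricted genes and the other mutants for others. Against E14 day 5, 6 of the 26 restricted genes were higher and 1 lower (13 passed the minimum), beside 16.8% and 4.40% of all genes. Of these, 4 were higher and 1 lower among the 11 above 0 in both. The median was 0.87 for restricted, 0.34 for broad and 0.13 for all genes, and with no minimum it was 0.30 over all 26 restricted genes, below the broad value. The higher genes were *Foxc1*, *Foxf2*, *Foxj1*, *Foxl2*, *Foxp3* and *Foxq1*. Compared directly, 8 restricted genes were lower and 2 higher in Suz12GT than in Suz12delta day 5 cells (17 passed), where 19.3% of all genes were lower and 12.5% higher. Against Eednull day 5 cells 7 were lower and 1 higher (16 passed), where 14.4% and 14.9% of all genes were. *Foxd2*, *Foxf2* and *Foxc1* were lower in Suz12GT in both, with log2 ratios to Suz12delta of -3.51, -3.43 and -2.56, and *Foxb1* was higher in both (4.06).

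*Foxl2* and *Foxj1* had their highest day 5 value in Suz12GT cells, though the 3 mutant values of each were within 2-fold of one another. *Foxl2*, a factor of ovarian granulosa cells (chromosome 9, 98856026 to 98858545), was at 0.0741, 0.0265, 0.0732 and 0.189 FPKM in E14, CJ7, Suz12delta and Eednull ESCs. At day 5 it was at 0.234 in E14, 1.81 in Suz12GT, 1.38 in Suz12delta and 1.21 in Eednull cells. The noncoding gene *Foxl2os*, which is no member of the family and was looked at after the *Foxl2* values were seen, lies 296 bases away on the opposite strand. It was at 0.209 in E14, 2.29 in Suz12GT, 1.64 in Suz12delta and 2.497 in Eednull day 5 cells. *Foxj1*, the master regulator of motile cilia, was at 0.564, 0.405, 0.346 and 0.712 in the ESC libraries and at 0.574 in E14, 1.77 in Suz12GT, 1.16 in Suz12delta and 1.36 in Eednull day 5 cells. The floor plate, a ciliated midline tissue, was marked by a 5-gene sum of 49.2 in E14, 135 in Suz12GT, 26.9 in Suz12delta and 30.6 in Eednull day 5 cells. Of these genes 4 of 5 were higher in Suz12GT than in E14. In Suz12delta 2 were higher and 3 lower and in Eednull 2 higher and 2 lower, the higher ones being *Shh* and *Sulf1* in both. *Shh*, the floor plate signal, was at 1.71 in E14, 10.4 in Suz12GT, 9.06 in Suz12delta and 8.84 in Eednull cells. *Slit1*, among the lower genes in both of the latter lines, was at 15.8 in E14, 25.7 in Suz12GT, 0.591 in Suz12delta and 0.409 in Eednull cells. The part of these markers in the *Foxj1* values was not tested.

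Within each mutant line, day 5 cells were also compared with their own ESCs. In Suz12delta cells 12 of 26 restricted genes were higher at day 5 and 3 lower (19 passed), beside 26.9% and 12.6% of all genes, with medians of 1.49 for restricted, 0.94 for broad and 0.43 for all genes. With no minimum the restricted median was 0.63, below the broad one. *Foxd2* (4.43), *Foxd1* (3.51) and *Foxl2* (3.09) had the largest log2 ratios, and *Foxs1* (-5.01) was the lowest. In Eednull cells 9 restricted genes were higher and 11 lower (23 passed), beside 18.4% and 24.8% of all genes, with medians of -0.06, 0.26 and -0.08. *Foxd2* (4.65), *Foxp2* (3.82) and *Foxd1* (3.38) led there, and *Foxi3* (-4.69) and *Foxs1* (-3.78) were lowest. The lower genes in Eednull included *Foxa3*, *Foxq1*, *Foxd4*, *Foxb2* and *Foxe3*, of which each had been higher in Eednull than in E14 ESCs. In Suz12delta cells the all-gene median moved by -0.37 with 75th-percentile scaling.

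Of the 12 broad genes 4 were higher in Suz12delta and 2 in Eednull day 5 cells than in E14, *Foxo1* and *Foxo3* in both, beside 26.6% and 21.6% of all genes. The FOXO proteins are transcription factors held in the cytoplasm by insulin and PI3K signalling. *Foxo1* was at 5.47 FPKM in E14, 5.47 in CJ7, 2.32 in Suz12delta and 7.23 in Eednull ESCs, and at 0.873 in E14, 1.60 in Suz12GT, 4.11 in Suz12delta and 2.92 in Eednull day 5 cells. *Foxo3* was at 8.28, 5.64, 4.45 and 7.67 in the ESC libraries and at 3.51, 6.39, 10.9 and 9.47 at day 5, in the same orders. *Foxo4* was at 13.7, 11.0, 7.33 and 16.6 in ESCs and at 5.86, 5.24, 11.9 and 10.4 at day 5. All 3 were lower in wild-type day 5 cells than in E14 ESCs (log2 ratios -2.52, -1.21 and -1.21), also with 75th-percentile scaling (-2.38, -1.08 and -1.08). Against E14 day 5, *Foxo1* and *Foxo3* were higher in Suz12delta (2.12 and 1.60) and Eednull cells (1.63 and 1.41), and *Foxo4* was at 1.01 and 0.82, the former 0.86 after scaling.

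*Foxp4* and *Foxp1*, repressors of lung, gut and neural development, the second also a Hox cofactor in limb motor neurons, were among the highest forkhead genes. *Foxp4* was the top forkhead gene in every day 5 library, at 35.9 FPKM in E14, 36.99 in Suz12GT, 65.5 in Suz12delta and 63.5 in Eednull cells, from 16.4 in E14, 20.1 in CJ7, 8.21 in Suz12delta and 17.8 in Eednull ESCs. It was 2-fold higher at day 5 in all 3 lines with both stages (log2 ratios 1.12, 2.98 and 1.83). *Foxp1* was at 17.5, 21.2, 9.54 and 12.6 in the ESC libraries and at 17.7, 25.1, 29.0 and 25.1 at day 5. *Foxm1*, the activator of mitotic genes, was at 19.7, 12.4, 11.2 and 14.3 in ESCs and 22.0, 16.4, 34.4 and 25.4 at day 5, lowest there in Suz12GT cells. Of the FOXK proteins, nuclear repressors of autophagy genes, *Foxk2* was at 15.5, 13.2, 6.63 and 17.6 in ESCs and 26.7, 25.9, 23.2 and 19.1 at day 5, and *Foxk1* was at 4.90, 3.49, 4.82 and 4.37 and at 6.52, 8.83, 7.89 and 6.86.

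Of the remaining broad genes, *Foxj3*, a regulator of muscle and germ cell genes, was at 18.6 FPKM in E14, 11.7 in CJ7, 12.4 in Suz12delta and 14.7 in Eednull ESCs and at 7.95, 11.2, 15.7 and 14.3 in E14, Suz12GT, Suz12delta and Eednull day 5 cells. *Foxj2* was at 1.73, 0.937, 2.16 and 1.41 in ESCs and 1.302, 2.75, 4.66 and 2.39 at day 5, where it was higher than E14 in Suz12GT (1.03) and Suz12delta (1.76). *Foxn3*, a checkpoint repressor, was at 9.16, 3.26, 5.31 and 5.09 in ESCs and 8.31, 9.85, 6.09 and 5.98 at day 5. *Foxn2* was at 12.1 in E14, 4.42 in Suz12delta and 7.79 in Eednull ESCs, listed at 0 in CJ7, and at 4.15, 4.65, 5.33 and 4.97 at day 5. Between wild-type ESCs and day 5 cells, 1 broad gene was higher and 5 lower, beside 18.3% and 25.8% of all genes. From Suz12delta ESCs to day 5, 6 were higher (*Foxj2*, *Foxk2*, *Foxm1*, *Foxo3*, *Foxp1* and *Foxp4*) and 0 lower, beside 26.9% and 12.6% of all genes. Of these *Foxj2* (1.07) and *Foxo3* (1.27) came to 0.70 and 0.89 with 75th-percentile scaling. In Eednull cells 1 was higher and 1 lower, beside 18.4% and 24.8% of all genes.

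**Figure D5:**
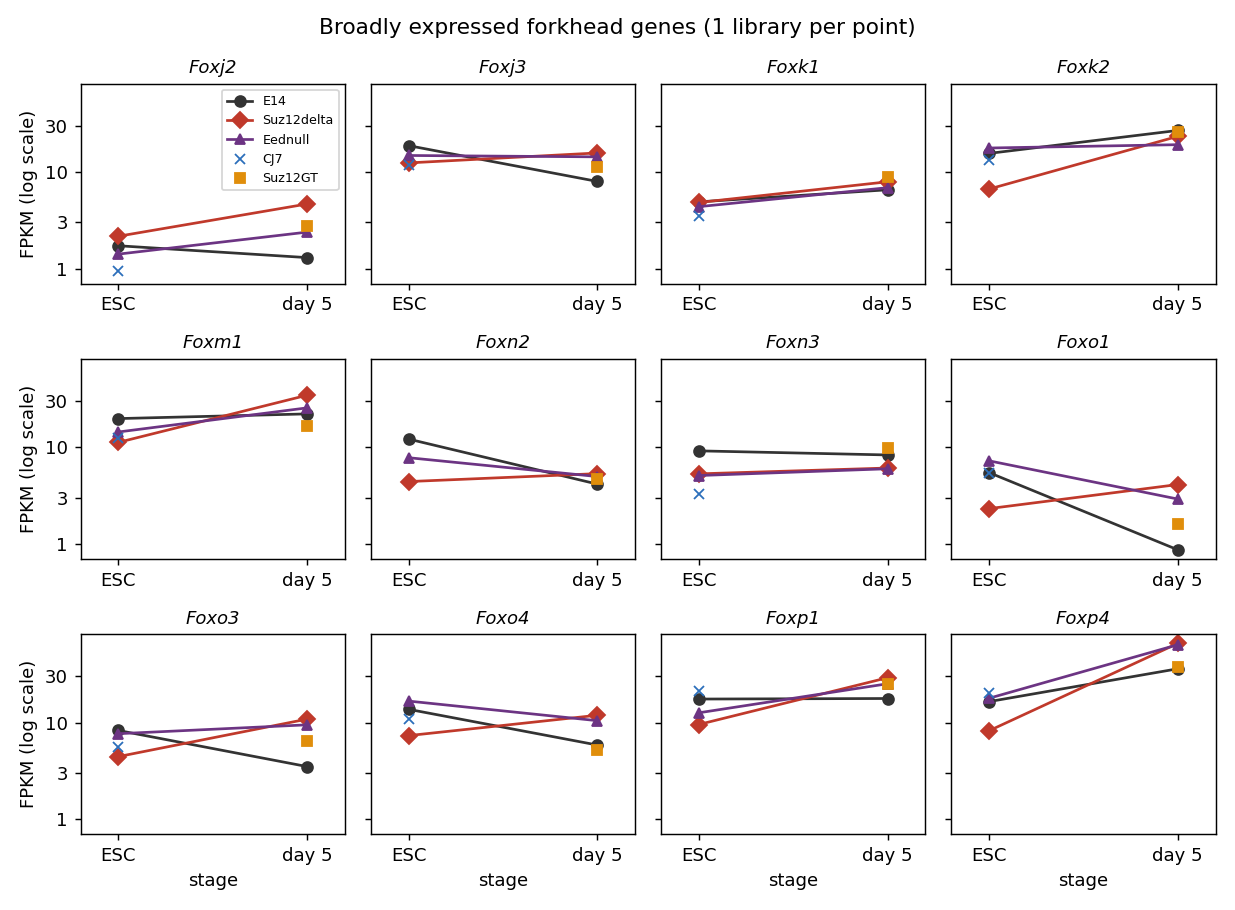
FPKM (y axis, log scale) of the 12 broad forkhead genes in ESCs and at day 5, with lines joining the E14, Suz12delta and Eednull libraries of a line and single points for CJ7 ESCs and Suz12GT day 5 cells. The Foxn2 point of CJ7 is left out because the gene was listed at 0 there. Foxo1 and Foxo3 in E14 run down from 5.47 to 0.873 and from 8.28 to 3.51, while Foxp4 runs up in every line, to 65.5 in Suz12delta cells.

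Genes known to be regulated by 3 of these factors were examined beside them. Of 12 FOXO targets, all in the table, 0 were higher and 2 lower in wild-type day 5 cells than in E14 ESCs, *Bcl6* and *Gadd45a*. The latter, a DNA damage response gene, was at 43.8 FPKM in E14 ESCs and 8.73 at day 5. At day 5, 2 of 12 were higher in Suz12delta cells than in E14 and 0 lower, where 26.6% of all genes were higher. In Eednull cells 2 were higher and 1 lower, where 21.6% of all genes were higher. The higher targets were *Bcl6*, a repressor (0.135 in E14, 1.23 in Suz12delta and 1.45 in Eednull cells), and *Bcl2l11*, which encodes the pro-apoptotic BIM (9.80, 25.4 and 24.6). Medians of the FOXO targets at day 5 were 0.41 in Suz12delta and 0.22 in Eednull cells, beside 0.26 and 0.08 for all genes. Of 12 FOXM1 targets of mitosis, 0 were higher in any mutant against E14 at the same stage, where 16.8% to 26.6% of all genes were. Lower were 2 in Suz12delta ESCs and 1 in Eednull day 5 cells, where 22.8% and 11.3% of all genes were. Their medians were -0.70 in Suz12delta ESCs and -0.40 in Suz12GT day 5 cells, beside -0.28 and 0.13 for all genes. In Eednull ESCs, Suz12delta day 5 and Eednull day 5 cells they were 0.07, 0.25 and 0.11, beside 0.04, 0.26 and 0.08. Of 12 FOXJ1 targets of motile cilia 9 were in the table and 6 to 8 passed the minimum. In Suz12GT day 5 cells, where *Foxj1* was highest, 1 of 7 was higher and 0 lower, with a median of 0.10 beside 0.13 for all genes. In ESCs, 6 of 8 cilia genes were lower in Suz12delta and 4 of 8 in Eednull cells than in E14, and 0 were higher. Over all genes 22.8% and 11.9% were lower. Against CJ7 ESCs, 2 of 8 cilia genes were lower in each mutant and 0 higher, where 24.0% and 10.7% of all genes were lower.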

How the data were processed

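RNA-seq of 8 libraries, 1 per condition, was used. The authors deposited FPKM per gene, estimated by Cufflinks 1.2.1 with Cuffdiff (bias and multi-read correction) from Tophat 1.3.2 alignments that used Bowtie 0.12.7, on an Ensembl-based annotation of NCBI build 37; whether strand was used is not given in the sources used here. Ratios were log2(FPKM + 0.1) between single libraries, for genes reaching 0.1 FPKM in either, with 2-fold as the limit and no test. Members and lists were chosen with earlier results of these data known. Every member that reached 1 FPKM anywhere was named with all its values, except 1 that enters the counts but is not reported here, and from each list at most 3 genes with the largest differences. Groups came from the sample labels. Coordinates are from GENCODE vM1 (NCBI build 37; 40 of 40 identifiers matched), promoters from RefSeq (GRCm38.p6). As alternatives, the pseudocount was 0.01 or 1, the minimum 1 FPKM or absent, the limit 4-fold, libraries were scaled to their 75th percentile over 17842 genes, CJ7 served as the wild-type ESC or set the classes, and, chosen after seeing the data, only genes above 0 in both libraries. The ratio code was tested on simulated data. Python 3.11.15, NumPy 2.4.6, pandas 2.3.3 and matplotlib 3.10.9 were used.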

Additional observations from a re-analysis of the deposited data

Results flagged for a closer look

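Some genes went one way between ESCs and day 5 in wild-type E14 cells and the opposite way, each by at least 2-fold, in a mutant line. With 1 library per condition the difference was not tested. For *Foxc1* the log2 change from ESCs to day 5 was -1.05 in E14, 1.59 in Suz12delta and 1.85 in Eednull cells, so that the mutant change exceeded that of E14 by 2.64 and 2.89. For *Foxe1*, a thyroid factor under 1 FPKM throughout, it was -1.24 and 1.75, a difference of 2.998. For *Foxo3* it was -1.21 and 1.27, a difference of 2.48, and with 75th-percentile scaling these changes were -1.08 and 0.89. The same scaling brought the E14 change of *Foxc1* under 2-fold, from low values of 0.236 FPKM in E14 ESCs and 0.0627 at day 5.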

How the results depend on the processing

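No paired analysis was possible because each condition had 1 library. The counts of higher restricted and broad genes in the 9 comparisons were recomputed under each alternative, 146 values in all, of which 116 stayed within 1.5 times the reported count and 30 did not. None of the 30 came from a pseudocount of 0.01 or taking only genes above 0 in both libraries, an alternative chosen after seeing the data. Dropping the minimum could move no count, so its 18 values stayed the same by construction. With 0.1 added, a gene under 0.1 FPKM in both libraries cannot reach 2-fold. A pseudocount of 1 lowers ratios of genes near 0.1 FPKM by construction. It gave restricted counts of 1 in Suz12delta, 2 in Eednull and 0 in CJ7 ESCs against E14, 2 in Suz12GT, 6 in Suz12delta and 6 in Eednull day 5 cells, 6 and 5 from ESCs to day 5 in Suz12delta and Eednull cells, and a broad count of 0 in Suz12GT. A 4-fold limit gave restricted counts of 1, 4 and 0 in Suz12delta, Eednull and CJ7 ESCs, 2 in Suz12GT and 6 in Eednull day 5 cells and 6 from Suz12delta ESCs to day 5, with broad counts of 0 in Suz12GT, 1 in Suz12delta and 0 in Eednull day 5 cells and 0, 1 and 0 from ESCs to day 5 in E14, Suz12delta and Eednull cells. A minimum of 1 FPKM left restricted counts of 2 in Suz12delta, 3 in Eednull and 2 in CJ7 ESCs and 3 in Suz12GT day 5 cells. CJ7 as the wild-type ESC gave 9 restricted and 2 broad genes in Suz12delta and 1 broad gene in Eednull ESCs, *Foxn2* at 0 in CJ7 being among the broad ones. In Suz12GT day 5 cells the broad count of 1 became 0 with 75th-percentile scaling and 0 with the broad class defined as all forkhead genes at 1 FPKM or more in CJ7 ESCs. Read depth is unknown, and values near 0.1 FPKM, where most restricted genes of wild-type cells lie, have no error.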

Other observations

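Restricted forkhead genes that lie next to each other were compared. *Foxq1*, *Foxf2* and *Foxc1* lie in this order on chromosome 13 of NCBI build 37, with gaps of 64.8 kb and 175 kb. In Eednull ESCs they were at 5.65, 0.978 and 0.471 FPKM and in Eednull day 5 cells at 2.004, 3.63 and 1.95 FPKM, so that *Foxq1* was higher in ESCs than at day 5 and both others were lower. In Suz12GT day 5 cells they were at 2.02, 0.262 and 0.344 FPKM, and in Suz12delta day 5 cells at 1.83, 3.79 and 2.52 FPKM, with *Foxq1* alike in these cultures and *Foxf2* and *Foxc1* not. *Foxd2* and *Foxe3*, a lens gene, are 16.2 kb apart on chromosome 4. In Suz12delta and Eednull day 5 cells *Foxd2* was at 4.07 and 4.46 FPKM and *Foxe3* at 0.134 and 0.109 FPKM. No test was possible with 1 library per condition.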
